A study of Mus musculus with 20 samples.

Results

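The comparison set ovaries of old Ames dwarf mice against ovaries of old normal mice. Members were chosen by label: the 5 libraries of dwarf (df/df) females at 22 months and the 5 libraries of normal (N/df) females at 22 months, 10 of the 20 libraries of the series. The other 10 came from the same genotypes at 6 months, 5 of each, and are used only beside the 22-month values. Messenger RNA was sequenced from flash-frozen whole ovaries, and the series text counts 20 mice, 5 per age and genotype. No treatment is named for any group. The normal mice carry 1 df allele too, so both groups share it and differ in the second copy. The df/df genotype is present in every tissue, and nothing in the labels says at which stage of the cycle the ovaries were taken.

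Ames dwarf mice lack growth hormone, prolactin and thyrotropin, and they are small, long-lived and of low fertility. Prolactin in rodents keeps the corpus luteum, the progesterone-making body left after ovulation, in working order through the receptor Prlr and the factor STAT5. Growth hormone acts through the related receptor Ghr, and both receptors drive feedback inhibitors such as Cish and Socs2. An old mouse ovary holds few follicles, and stroma, steroid-making interstitial cells and immune cells make up more of the tissue.

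Counts per library ranged from 5399377 to 13448164 in dwarf and from 5186090 to 20266823 in normal ovaries at 22 months. Summed over oocyte markers the level was 47.5 CPM or more in each of the 10 libraries, and over granulosa markers 1078 CPM or more, where CPM is the standard count rate relative to library size after TMM scaling.

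Several libraries stood apart. Dwarf replicates 1 and 4 differed far less than any other pair: the chi-square of their counts divided by its degrees of freedom was 2.42, against 11.6 to 147 in the other 19 pairs within a group. The labels give them as separate samples, so they are counted as 2, and counts with the pair summed into 1 library are printed beside the totals. Normal replicate 3 was high in immune genes, with 2567 CPM summed over B and plasma cell markers against 360 to 642 CPM in the other normal libraries. Dwarf replicate 2 held 2937 CPM summed over interferon-induced genes against 675 to 741 CPM in the other dwarf libraries. The same library had 1855 CPM over luteal markers, against 4435 to 4808 CPM in the others.

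Of 23457 genes, 16099 had enough counts to be tested. With edgeR's quasi-likelihood test over all 20 libraries and a Benjamini-Hochberg adjusted p under 0.05, 614 genes (3.81%) differed at 22 months. Of these, 315 (1.96%) were higher and 299 (1.86%) lower in dwarf ovaries. The values of the 2 groups did not overlap for 1184 genes (7.35%). With dwarf replicates 1 and 4 summed, 272 genes passed, 186 higher and 86 lower, of which 271 were among the 614. Without 1 library the count ranged from 262 (dwarf replicate 4) to 637 (normal replicate 5), with 263, 376 and 321 without dwarf replicates 1, 3 and 5 and 399 without normal replicate 1. Without the 3 libraries with title numbers 21 to 23 (dwarf replicate 5, normal replicate 3 and a normal library at 6 months) it was 323. Of the 614 genes, 226 passed in all 10 of the fits without 1 library, 159 higher and 67 lower. Differences below are log2, dwarf minus normal, with an SE derived from edgeR's F statistic, and the median over all tested genes was -0.04. Upper quartile scaling called 604 genes, 65.1% of them higher against 51.3% with TMM. The shares of all tested genes, 1.96% higher and 1.86% lower, are the reference for the counts of each list below.

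Promoter sequences of a few genes that the results turn on are shown first, from RefSeq on GRCm38.p6 (the mm10 assembly), 5′ to 3′ on the gene's strand. Windows from 250 bases before to 50 bases after each RefSeq gene start were searched on both strands for TTCNNNGAA (a STAT5 motif, for prolactin and growth hormone signals), TGACNNNGC (the core of the antioxidant response element) and AGGTCA (a core site of nuclear receptors). Capitals mark the matches of the motif named with each gene. The C7 window also holds AGGTCA, printed in lower case and apart from its STAT5 match. Cish, lower in dwarf ovaries, has 2 STAT5 matches, beginning at bases 1 and 12 from the RefSeq start, at chr9:107296409-107296688 on the plus strand (250 bases before to 30 after the start). C7, higher in dwarf ovaries, has 1 match 164 bases before its start, at chr15:5063774-5064023 on the minus strand.
Cish: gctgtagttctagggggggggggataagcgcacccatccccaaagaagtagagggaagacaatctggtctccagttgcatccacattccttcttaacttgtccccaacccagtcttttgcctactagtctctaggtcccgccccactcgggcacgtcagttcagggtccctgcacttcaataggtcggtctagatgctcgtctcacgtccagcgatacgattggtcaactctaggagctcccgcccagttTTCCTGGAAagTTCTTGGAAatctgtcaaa
C7: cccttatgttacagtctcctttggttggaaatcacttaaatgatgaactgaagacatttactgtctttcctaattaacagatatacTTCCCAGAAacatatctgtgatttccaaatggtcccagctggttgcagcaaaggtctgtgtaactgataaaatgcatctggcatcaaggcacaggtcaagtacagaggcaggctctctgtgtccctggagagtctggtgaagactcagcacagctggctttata
The same STAT5 letters thus lie near the start of a gene that was lower and of a gene that was higher. Of 32851 such promoter windows, 8.3% hold TTCNNNGAA, 12.4% hold TGACNNNGC and 16.3% hold AGGTCA. Gsta3, a glutathione transferase, holds the antioxidant letters 121 bases before its start, at chr1:21240335-21240584 on the plus strand. Sult1e1, the estrogen sulfotransferase, holds 1 such core site 113 bases before its start, at chr5:87591612-87591861 on the minus strand.
Gsta3: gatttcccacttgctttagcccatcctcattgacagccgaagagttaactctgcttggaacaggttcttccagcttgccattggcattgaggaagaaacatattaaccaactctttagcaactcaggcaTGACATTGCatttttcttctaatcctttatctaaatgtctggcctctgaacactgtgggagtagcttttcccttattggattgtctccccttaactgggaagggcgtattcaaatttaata
Sult1e1: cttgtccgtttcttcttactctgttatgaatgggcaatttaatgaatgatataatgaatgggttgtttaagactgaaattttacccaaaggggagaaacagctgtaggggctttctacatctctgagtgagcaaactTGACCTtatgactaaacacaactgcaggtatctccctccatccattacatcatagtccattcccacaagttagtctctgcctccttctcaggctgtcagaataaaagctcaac
A match is a description of the letters, and binding of these factors was not measured.

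Several luteal genes were lower in the old dwarf ovary. Of 19 luteal markers tested, 7 fell, 0 rose and the median difference was -1.97. The call of Cyp11a1, the enzyme that starts steroid synthesis from cholesterol, came with that of Akr1c18, which breaks progesterone down. In bulk tissue, fewer cells of a type and less RNA per cell cannot be told apart, here and for each cell type below.

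Akr1c18 (20alpha-hydroxysteroid dehydrogenase, chr13:4132627-4150631, mm10) stood at 1.5, 1.32, 2.06, 0.926 and 3.39 CPM in dwarf replicates 1 to 5 and at 589, 26, 13.7, 12.7 and 65.6 CPM in normal replicates 1 to 5. Each dwarf library was below each normal library, and normal replicate 1 was far above the rest. The difference was -6.32 ± 1.27 (SE, n = 5 per group, edgeR adjusted p = 0.0097), and -4.04 without normal replicate 1. Cyp11a1 (chr9:58015017-58027023) measured 221, 62.2, 214, 215 and 188 CPM in dwarf libraries and 3780, 715, 1240, 3180 and 1030 CPM in normal ones, a difference of -3.46 ± 0.815 (edgeR adjusted p = 0.0225). The groups did not overlap, and dwarf replicate 2 was the lowest. Its edgeR adjusted p reached up to 0.0627 with 1 library left out: the call was lost without any 1 of the 5 dwarf libraries and without normal replicate 1, and it was 0.0595 with dwarf replicates 1 and 4 summed.

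Sfrp4, a secreted Wnt inhibitor made in the corpus luteum, measured 17.8, 24, 18.2, 14.5 and 35.7 CPM in dwarf libraries and 1860, 183, 213, 1120 and 430 CPM in normal ones (chr13:19623175-19632823). The lowest normal library lay above the highest dwarf library, and the difference was -5.12 ± 0.861 (edgeR adjusted p = 0.00264). Ptgfr, the receptor through which prostaglandin F2alpha ends luteal life, differed by -3.58 ± 0.855 (edgeR adjusted p = 0.0239), from 50.7 ± 41.9 CPM (SD, n = 5) in normal to 4.35 ± 3.61 CPM in dwarf ovaries. It was chosen after its values were seen, its groups overlapped, and its call was lost without dwarf replicate 1, 3 or 4 or normal replicate 1. Lhcgr, the luteinizing hormone receptor, was 18.5 ± 9.19 CPM in dwarf and 92.2 ± 45.4 CPM in normal ovaries without passing the test (-2.32 ± 0.817, edgeR adjusted p = 0.125). Star, which carries cholesterol into mitochondria, and Scarb1, the receptor for high-density lipoprotein, also did not pass (edgeR adjusted p = 0.222 and 0.07, differences -1.34 and -1.97). Summed over the list, dwarf libraries held 1855 to 4808 CPM and normal libraries 3513 to 14630 CPM, so the sums overlapped between the groups. The list had 3 calls without dwarf replicate 1, 3 or 4, without normal replicate 1 or with dwarf replicates 1 and 4 summed, and 4 without dwarf replicate 2. Without both dwarf replicate 2 and normal replicate 3 it had 3, with a median of -1.89. It had 4 without the libraries with title numbers 21 to 23 and 11 with the 10 libraries at 22 months alone.

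**Figure D1:**
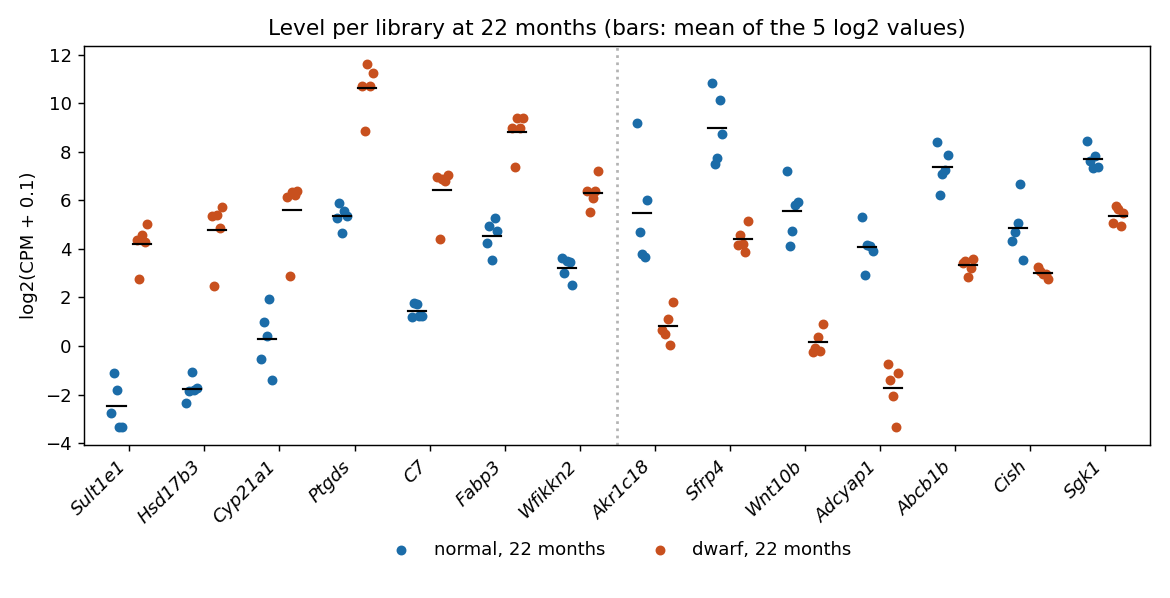
Level of 14 genes in each library at 22 months as log2(CPM + 0.1), normal in blue and dwarf in orange, with bars at the mean of the 5 log2 values. Genes left of the dotted line were higher in dwarf libraries and those right of it lower, with no overlap between the groups, and dwarf replicate 2 is the lowest dwarf point of the 7 genes on the left.

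Several genes of a list of prolactin signalling and targets fell, and the prolactin receptor did not pass the test. The list was not split by whether prolactin raises or lowers a gene. Of 19 genes of the prolactin list, which shares Akr1c18, Cited4 and other members with the luteal list, 5 fell and 0 rose. Over all tested genes 1.86% fell and 1.96% rose. The median of the list was -0.55. The 5 were Akr1c18, Cish, Cited4, Socs3 and Cdkn1b, and 3 fell without dwarf replicate 1. Without the libraries with title numbers 21 to 23, 2 fell and 1 rose. Cish, a STAT5-induced inhibitor of cytokine receptors, measured 9.4, 8.42, 7.67, 7.83 and 6.78 CPM in dwarf libraries and 19.9, 26.1, 33.7, 102 and 11.6 CPM in normal ones. The dwarf values lay close together and below each normal value, and normal replicate 4 was the highest (-2.26 ± 0.485, edgeR adjusted p = 0.0138, -1.48 at the least with 1 library left out). Without the libraries with title numbers 21 to 23 its edgeR adjusted p was 0.0654. Cited4, a transcription cofactor, differed by -2.12 ± 0.435 (edgeR adjusted p = 0.0105), at 32.8 ± 7.33 CPM in dwarf and 143 ± 104 CPM in normal ovaries, and its edgeR adjusted p was 0.0522 without the libraries with title numbers 21 to 23. Socs3, an inhibitor of cytokine signals, differed by -0.89 ± 0.186 (edgeR adjusted p = 0.0113, 0.0505 without dwarf replicate 1 and 0.0856 without the libraries with title numbers 21 to 23). Prlr stood at 148 ± 55.6 CPM in dwarf and 204 ± 115 CPM in normal ovaries (-0.46 ± 0.586, edgeR adjusted p = 0.774), and the prolactin transcript itself had 0 counts in each library.

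Growth hormone and IGF genes moved in both directions. Of 25 tested, 2 rose (Igf1 and Igf2) and 2 fell (Cish and Socs3), beside 1.96% and 1.86% of all tested genes. The median was -0.15. Without the libraries with title numbers 21 to 23, 1 rose and 0 fell. Igf1, the growth factor that growth hormone induces in liver and that granulosa cells make in the mouse ovary, measured 79.2, 51.4, 87.6, 84.9 and 142 CPM in dwarf libraries and 35.9, 14.7, 35.6, 29.8 and 58.5 CPM in normal ones (chr10:87859056-87937047). Dwarf replicate 2 fell below normal replicate 5, and the other 4 dwarf libraries lay above each normal library (1.35 ± 0.302, edgeR adjusted p = 0.0168). The edgeR adjusted p of Igf1 reached 0.0495 without dwarf replicate 5, and the call was lost without the libraries with title numbers 21 to 23 (1.15, 0.0765). Igf2, the related fetal growth factor, measured 103, 61.4, 77.9, 103 and 121 CPM in dwarf libraries and 37, 17.4, 30.7, 39.8 and 24.7 CPM in normal ones, with no overlap (1.64 ± 0.211, edgeR adjusted p = 0.000426). Exons of Igf2 overlap those of its antisense gene Igf2as, and whether the counting used strand is not given in the sources used here. Ghr was 35.8 ± 2.37 CPM in dwarf and 25.2 ± 8.13 CPM in normal ovaries (0.50 ± 0.222, edgeR adjusted p = 0.232), and Socs2, another feedback inhibitor, 68 ± 13.5 and 73.6 ± 25.8 CPM (-0.11 ± 0.31, edgeR adjusted p = 0.92). Of 19 genes of thyroid hormone transport, receptors and targets, 0 passed edgeR's test against 3.81% of all genes, with a median of 0.00. At an unadjusted p under 0.05 there were 5, and DESeq2 and limma voom each called 3. In the list of insulin, PI3K and FOXO genes 1 of 32 rose, beside 1.96% of all tested genes. The gene was Pik3r1, the regulatory subunit of PI3-kinase (0.77 ± 0.182, edgeR adjusted p = 0.0224, lost without dwarf replicate 1 or 4 or with both summed). Foxo3, which holds primordial follicles at rest, stood at 53.6 ± 6.91 CPM in dwarf and 52.4 ± 7.15 CPM in normal ovaries (0.03 ± 0.218, edgeR adjusted p = 0.97).

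**Figure D2:**
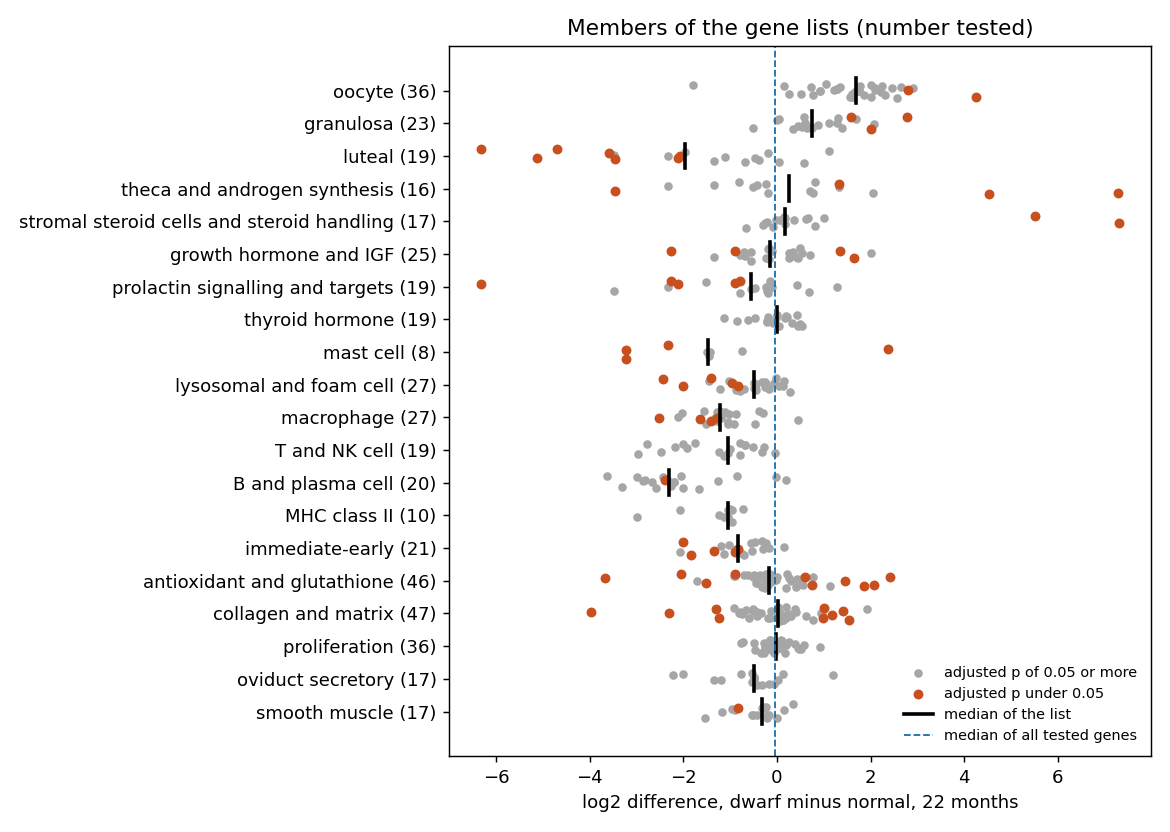
Log2 difference at 22 months for each tested member of 20 gene lists (number tested in brackets), with members at an adjusted p under 0.05 in orange, the median of each list as a black bar and the median of all tested genes as a dashed line. The oocyte list lies to the right with 2 calls and a median of 1.68, and the luteal list to the left with 7 calls and a median of -1.97.

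The steepest rises included genes for androgen, corticosteroid and estrogen handling. Hsd17b3, the testis-type enzyme that turns androstenedione into testosterone, and Cyp21a1, steroid 21-hydroxylase of the adrenal pathway, were lower in each normal library, at no more than 0.376 and 3.72 CPM, than in any dwarf library. Of 16 theca and androgen synthesis genes 3 rose (Hsd17b3, Insl3, Gli1) and 1 fell (Cyp11a1), and of 17 genes of stromal steroid cells and steroid handling 2 rose (Sult1e1, Cyp21a1) and 0 fell. The medians of these lists were 0.25 and 0.17.

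Sult1e1 (chr5:87575968-87591611) inactivates estrogen by adding sulfate. Its level was 20.7, 6.62, 23.5, 19.2 and 32.3 CPM in dwarf replicates 1 to 5 and 0.0495, 0.357, 0.188, 0 and 0 CPM in normal replicates 1 to 5. All 5 dwarf libraries lay above all 5 normal ones (7.30 ± 0.731, edgeR adjusted p = 2.68e-05). Hsd17b3 (chr13:64058274-64089201) measured 40.4, 5.49, 42, 28.7 and 53.7 CPM in dwarf libraries and 0.0991, 0.178, 0.376, 0.186 and 0.205 CPM in normal ones, again with no overlap (7.28 ± 0.779, edgeR adjusted p = 6.32e-05). Cyp21a1 (chr17:34801348-34804426), whose reads could be shared with a near-identical pseudogene, measured 70.6, 7.38, 80.5, 74 and 83.3 CPM in dwarf libraries and 0.594, 1.87, 1.25, 3.72 and 0.274 CPM in normal ones (5.51 ± 0.793, edgeR adjusted p = 0.000799). Dwarf replicate 2 was the lowest dwarf library for each of these genes and still above each normal library. Insl3, the insulin-like hormone of theca and Leydig cells, measured 7.02, 0.946, 22.9, 15.3 and 25.2 CPM in dwarf libraries against 0.149, 0.625, 0.627, 1.12 and 0.821 CPM in normal ones (4.52 ± 0.707, edgeR adjusted p = 0.00129). Its groups overlapped at dwarf replicate 2, and its exons overlap those of Jak3. Cyp17a1, which makes androgens from progestins, was 170 ± 86.6 CPM in dwarf and 41.3 ± 38.6 CPM in normal ovaries without passing the test (2.06 ± 0.927, edgeR adjusted p = 0.244).

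Genes with no steroid role rose by similar amounts. C7, a late complement component that joins the membrane attack complex (chr15:4988762-5063773), measured 126, 21.4, 118, 110 and 133 CPM in dwarf libraries and 2.18, 3.3, 3.26, 2.23 and 2.26 CPM in normal ones (5.25 ± 0.571, edgeR adjusted p = 6.32e-05). It was the 1 of 24 complement genes that rose, and 0 fell, beside 1.96% and 1.86% of all tested genes. Ptgds, the lipocalin-type prostaglandin D synthase (chr2:25466712-25469749), measured 1690, 461, 3150, 1670 and 2450 CPM in dwarf libraries and 38.4, 60, 25, 47.3 and 41.3 CPM in normal ones (5.47 ± 0.755, edgeR adjusted p = 0.000553). Both genes were lowest in dwarf replicate 2 among the dwarf libraries and did not overlap between groups. Fabp3, a fatty acid binding protein, rose by 4.33 ± 0.574 (edgeR adjusted p = 0.000447), from 25.3 ± 10.4 CPM in normal to 505 ± 205 CPM in dwarf ovaries. The protease inhibitors Serpina3a and Serpina5 rose by 4.16 and 4.24 (edgeR adjusted p = 0.00163 and 0.00129), and reads of Serpina3a could be shared with other members of its cluster. Wfikkn2, a secreted binder of growth differentiation factors, measured 83.5, 45.5, 69.5, 84.8 and 147 CPM in dwarf libraries and 12.2, 7.85, 11.2, 11 and 5.68 CPM in normal ones, with no overlap (3.17 ± 0.312, edgeR adjusted p = 2.68e-05). Icosl, the ligand of a T-cell costimulator, rose by a smaller 1.34 ± 0.134 at the same edgeR adjusted p of 2.68e-05, with 125 to 170 CPM in dwarf and 44 to 65.4 CPM in normal libraries. Its 5 dwarf values were tight, and the groups were far apart relative to their spread.

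Of the 315 genes that were higher, dwarf replicate 2 was the lowest dwarf library for 218. Without it, 535 genes passed, 331 higher and 204 lower, and without it and normal replicate 3, 416 passed, 259 higher and 157 lower. Akr1c18, Sfrp4, Sult1e1, Hsd17b3, Cyp21a1, Insl3, C7, Ptgds, Fabp3, Wfikkn2 and Icosl passed in each of the other fits that were run.

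Nearly every oocyte gene had a positive difference, and how many passed varied widely between fits. Of 36 tested, 35 had a positive difference, 2 rose (Dazl and Dppa3, beside 1.96% of all tested genes) and the median was 1.68. For 14 of the 36 the groups did not overlap, against 7.35% of all tested genes. Summed over the list, dwarf replicates 1 to 5 held 245, 208, 211, 246 and 155 CPM and normal replicates 1 to 5 held 74.6, 54.5, 47.5, 108 and 152 CPM. The highest normal library, replicate 5, lay just below the lowest dwarf library, replicate 5. Dppa3, a maternal factor that protects methylation in the zygote, measured 3.13, 3.41, 2.06, 3.2 and 2.86 CPM in dwarf libraries and 0.594, 0, 0.376, 0.372 and 0.616 CPM in normal ones (2.81 ± 0.73, edgeR adjusted p = 0.0357). Dazl, a germ cell RNA-binding protein, reached at most 1.25 CPM in a dwarf library and had counts in 1 normal library (4.26 ± 1.02, edgeR adjusted p = 0.0239). Without 1 library the list held 1 call in 6 of the fits, 0 without dwarf replicate 4 or 5 or normal replicate 3, and 11 without normal replicate 5. It held 1 with dwarf replicates 1 and 4 summed, 0 without the libraries with title numbers 21 to 23 and 4 with a replicate block. With the 22-month libraries alone 10 of 27 were called. Without normal replicate 3 and 2 normal libraries at 6 months, 17 were called. DESeq2 called 11 and limma voom 6. Dppa3 stayed called without normal replicate 5 and lost its call without any 1 of the other 9 libraries, and Dazl lost its call without dwarf replicate 4 or 5 or normal replicate 3.

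Granulosa genes showed the same direction with 3 rises and 0 falls among 23, a median of 0.75 and 22 positive differences. The 3 were Amh, Nr0b1 and Bex2, and 1 passed without dwarf replicate 4, without normal replicate 1 or without the libraries with title numbers 21 to 23. With dwarf replicates 1 and 4 summed, 2 passed. DESeq2 called 3 and limma voom 8. Amh, the hormone of growing small follicles (chr10:80805248-80807648), measured 43, 53.6, 53.9, 52.9 and 36.2 CPM in dwarf libraries and 3.67, 4.19, 2.63, 13.6 and 11.8 CPM in normal ones. The lowest dwarf library held more than the highest normal library (2.78 ± 0.664, edgeR adjusted p = 0.0239). The edgeR adjusted p of Amh rose to at most 0.0608 with 1 library left out: the call was lost without dwarf replicate 4 or normal replicate 1, 2 or 3, and it was 0.0503 with dwarf replicates 1 and 4 summed. Nr0b1 (DAX1), an orphan receptor that restrains steroid synthesis, rose by 2.02 ± 0.422 (edgeR adjusted p = 0.0113), from 5.94 ± 2.44 to 24.4 ± 8.26 CPM, and passed in each fit that was run. Fshr, the receptor for follicle-stimulating hormone, was 12.9, 11.3, 12.6, 16.3 and 15.3 CPM in dwarf libraries and 2.62, 0.714, 0.439, 3.54 and 8.83 CPM in normal ones. Its groups did not overlap, yet it did not pass the test (2.08 ± 0.813, edgeR adjusted p = 0.17).

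Kit, the receptor of stem cell factor on oocytes, theca and interstitial cells and mast cells, measured 263, 146, 282, 278 and 405 CPM in dwarf libraries and 30.6, 107, 30.9, 48.4 and 49.3 CPM in normal ones. The groups did not overlap (2.37 ± 0.319, edgeR adjusted p = 0.000447). The other mast cell genes went the opposite way: of 8 tested, Kit rose and 3 proteases fell, with a median of -1.47. Cma1, mast cell chymase, measured 1.76, 3.59, 1.21, 2.95 and 5 CPM in dwarf libraries and 40, 21.5, 10.2, 35.9 and 25.9 CPM in normal ones (-3.22 ± 0.564, edgeR adjusted p = 0.00351). Tpsb2, a tryptase with close relatives whose reads it could share, measured 5.01, 5.68, 3.2, 3.7 and 8.03 CPM in dwarf libraries and 44.3, 18.5, 10.9, 33 and 20 CPM in normal ones (-2.32 ± 0.448, edgeR adjusted p = 0.00683). Neither protease overlapped between the groups, and both were as low relative to normal ovaries without normal replicate 3 (-3.42 and -2.49). Cpa3, mast cell carboxypeptidase, differed by -3.22 ± 0.817 (edgeR adjusted p = 0.0324), a call lost without dwarf replicate 1, 3, 4 or 5 or normal replicate 1 or 4.

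Some lysosomal and foam cell genes were lower in dwarf ovaries. Of 27 tested, 5 fell and 0 rose, with a median of -0.49, and 5 fell, with a median of -0.49, without normal replicate 3. Ctsd, the lysosomal protease cathepsin D (chr7:142375916-142387870), measured 679, 603, 717, 665 and 758 CPM in dwarf libraries and 1270, 2920, 2280, 1530 and 1090 CPM in normal ones. The dwarf values were tight and each lay below the lowest normal value (-1.41 ± 0.234, edgeR adjusted p = 0.00201). Plin2, a coat protein of lipid droplets, measured 78.5, 80.3, 76, 77.9 and 81.2 CPM in dwarf libraries and 151, 127, 182, 141 and 157 CPM in normal ones (-0.95 ± 0.149, edgeR adjusted p = 0.0013). Acp5, tartrate-resistant acid phosphatase, differed by -2.00 ± 0.418 (edgeR adjusted p = 0.0113), and Hexa, a subunit of hexosaminidase, by -0.83 ± 0.156 (edgeR adjusted p = 0.00577). All 4 passed in each fit that was run, and none overlapped between the groups.

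Differences of macrophage and lymphocyte genes shrank when normal replicate 3 was left out. Of 27 macrophage genes 4 fell (Lyz2, Ctss, Tyrobp and Msr1) and 0 rose, with a median of -1.22. Without normal replicate 3 the median was -0.54 and edgeR called 0 of them. The count was also 0 without dwarf replicate 1, 3, 4 or 5 or with dwarf replicates 1 and 4 summed. It was 1 without dwarf replicate 2, 2 without normal replicate 4 and 7 without normal replicate 2. Without normal replicate 3 and normal 6-month replicates 2 and 3 it was 5, with a median of -0.56. DESeq2 called 10 and limma voom 13. Lyz2, macrophage lysozyme, whose reads could be shared with Lyz1, measured 144, 103, 129, 139 and 138 CPM in dwarf libraries and 279, 163, 724, 261 and 302 CPM in normal ones. The groups did not overlap (-1.40 ± 0.347, edgeR adjusted p = 0.0292), and without normal replicate 3 the difference was -0.93 (edgeR adjusted p = 0.0843). Its call was also lost without any 1 of the 5 dwarf libraries. Summed over the macrophage list, dwarf libraries held 659 to 1163 CPM, normal replicates 1, 2, 4 and 5 held 1121 to 1830 CPM and normal replicate 3 held 4431 CPM.

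B and plasma cell genes had the lowest list median, -2.31, among the 37 lists. Of 20 tested, 1 was called, Cd22, a B-cell receptor, beside 3.81% of all tested genes. Cd22 was at 4.69 to 8.8 CPM in dwarf libraries and at 9.16, 7.49, 124, 18.4 and 16.4 CPM in normal ones, and its difference moved from -2.39 (edgeR adjusted p = 0.031) to -0.92 (0.13) without normal replicate 3. Its call was also lost without dwarf replicate 1, 3, 4 or 5. Without normal replicate 3 the medians of the lists went from -2.31 to 0.07 for B and plasma cells, from -1.05 to -0.30 for T and NK cells, from -1.05 to -0.01 for MHC class II and from -0.99 to -0.18 for chemokines and cytokines. For T and NK cells (19 tested), MHC class II (10) and chemokines and cytokines (28), 0 genes were called by edgeR with all libraries. At an unadjusted p under 0.05 they held 7, 2 and 9, DESeq2 called 4, 1 and 3 of them and limma voom 0, 0 and 3. Interferon-induced genes had a median of -0.45 and 0 of 33 called (3 at an unadjusted p under 0.05, 0 with DESeq2, 1 with limma voom), and the median was -1.21 without dwarf replicate 2.

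**Figure D3:**
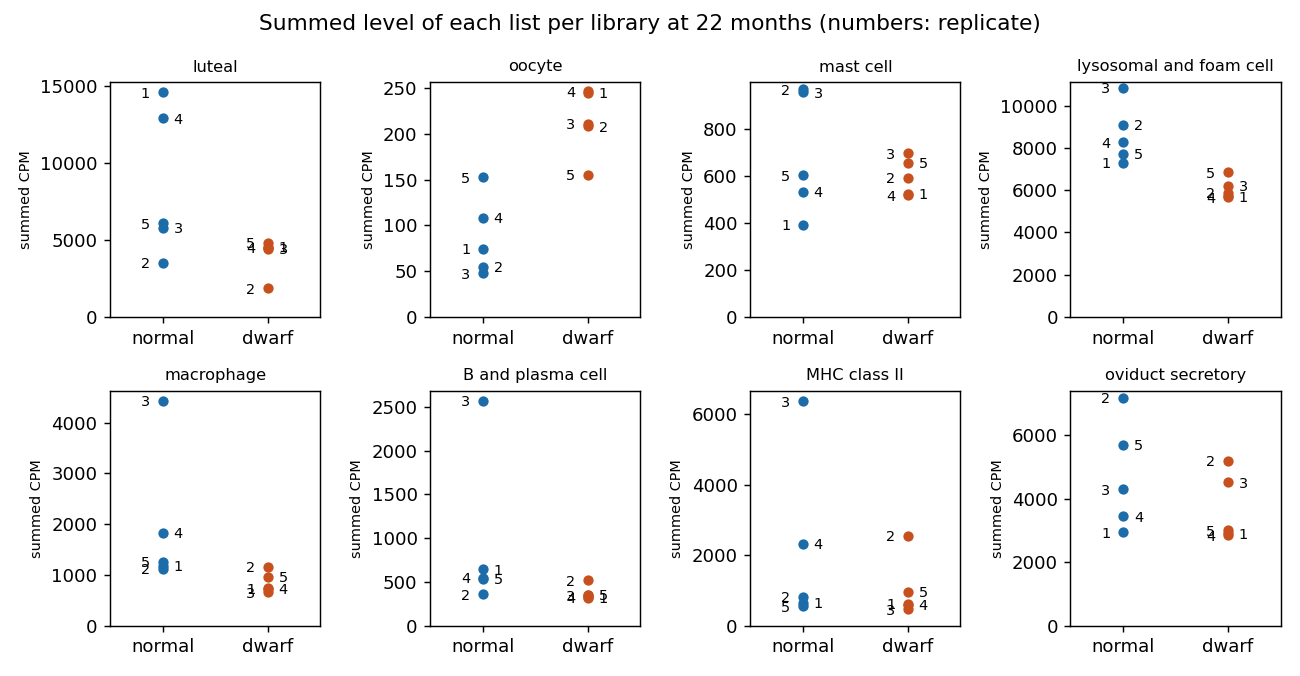
Level summed over the members of 8 gene lists in each 22-month library, in CPM, with the replicate number beside each point. Normal replicate 3 tops the B and plasma cell, MHC class II and macrophage panels, dwarf replicate 2 is lowest in the luteal panel at 1855 CPM, and dwarf libraries lie above normal ones in the oocyte panel.

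Some immediate-early genes, which respond quickly to stimulation, were lower. Of 21 tested, 5 fell and 0 rose, beside 1.86% and 1.96% of all tested genes. The median was -0.83, and 20 of the differences were negative. The falls were 2 without dwarf replicate 4 or without the libraries with title numbers 21 to 23, and 3 without dwarf replicate 1 or 3 or normal replicate 1 or 2. Egr2, a zinc finger factor, measured 2.63, 2.36, 3.12, 1.43 and 1.25 CPM in dwarf libraries and 9.86, 6.33, 8.91, 7.82 and 11 CPM in normal ones (-2.01 ± 0.35, edgeR adjusted p = 0.00343). The groups were clearly separate. Junb, a subunit of AP-1, measured 19.8, 32.9, 20.6, 21.4 and 25 CPM in dwarf libraries and 54.6, 107, 48.5, 55.5 and 39.9 CPM in normal ones, also with no overlap (-1.35 ± 0.281, edgeR adjusted p = 0.0113). Sgk1, a kinase induced by glucocorticoids, had the smallest p among the genes that fell. Its level was 33.3, 53.9, 49.9, 30.6 and 44.6 CPM in dwarf libraries and 351, 198, 160, 228 and 165 CPM in normal ones (-2.37 ± 0.284, edgeR adjusted p = 0.000184), with no overlap.

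Antioxidant and glutathione genes split, 6 rising and 4 falling among 46, with a median of -0.17 (3 and 2 without dwarf replicate 1 or 4, 3 and 3 without dwarf replicate 5 or normal replicate 1, 2 and 3 without the libraries with title numbers 21 to 23). Gsta3 measured 115, 43.1, 138, 116 and 130 CPM in dwarf libraries and 15.8, 22.9, 17.9, 25.9 and 19 CPM in normal ones (2.42 ± 0.381, edgeR adjusted p = 0.00129), and its reads could be shared with other alpha-class transferases. Nqo1, a quinone reductase of the NRF2 program, measured 21.3, 11.1, 21.8, 21.2 and 24.3 CPM in dwarf libraries and 5.94, 5.26, 4.01, 7.45 and 4.86 CPM in normal ones (1.86 ± 0.249, edgeR adjusted p = 0.000447). Neither overlapped between groups, and dwarf replicate 2 was the lowest dwarf library for both. Hmox1, heme oxygenase, also an NRF2 target, went the other way: 42.1, 35.9, 46.4, 40.1 and 66.7 CPM in dwarf libraries and 251, 253, 120, 190 and 150 CPM in normal ones (-2.06 ± 0.419, edgeR adjusted p = 0.0102). Mgst2, a microsomal glutathione transferase, differed by -3.67 ± 0.741 (edgeR adjusted p = 0.00988). Ucp2, a mitochondrial carrier, was lower by a small and steady amount, 428 to 645 CPM in dwarf against 845 to 1090 CPM in normal libraries (-0.85 ± 0.13, edgeR adjusted p = 0.00124).

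Wnt10b and Sfrp4 were among the steepest falls. Of 36 Wnt and Hedgehog genes 4 rose and 3 fell, with a median of 0.36. There were 3 falls without each library in turn, and the rises were 2 without dwarf replicate 1 or 4 or normal replicate 2 or 5 and 1 without dwarf replicate 5 or without the libraries with title numbers 21 to 23. Wnt10b, a canonical ligand (chr15:98771752-98778150), measured 0.752, 0.851, 1.21, 0.757 and 1.78 CPM in dwarf libraries and 148, 17.3, 26.5, 55.3 and 61.7 CPM in normal ones (-5.88 ± 0.916, edgeR adjusted p = 0.00129). Wnt4, needed for female gonad identity and luteal function, measured 159, 96.9, 116, 154 and 143 CPM in dwarf libraries and 613, 254, 264, 750 and 440 CPM in normal ones (-1.79 ± 0.393, edgeR adjusted p = 0.0151). Neither gene overlapped between the groups. In the other direction Gli1, the target that reports Hedgehog signalling in theca and stroma, measured 95.8, 88.6, 94.9, 94.3 and 130 CPM in dwarf libraries and 25.8, 21.7, 56.8, 60 and 37 CPM in normal ones (1.33 ± 0.289, edgeR adjusted p = 0.0149). Its exons overlap those of Arhgap9. Wisp2, a matricellular protein that Wnt signals induce, differed by -4.36 ± 0.89 (edgeR adjusted p = 0.0105), at 2.21 ± 0.588 CPM in dwarf and 45 ± 43.2 CPM in normal ovaries.

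Other steep falls were Adcyap1, Abcb1b and Tnc. Adcyap1, the neuropeptide PACAP made by granulosa cells around ovulation (chr17:93199422-93205489), measured 0.501, 0.284, 0.142, 0 and 0.357 CPM in dwarf libraries and 39.5, 7.4, 18, 17.5 and 15.2 CPM in normal ones (-6.34 ± 0.996, edgeR adjusted p = 0.00129). Abcb1b, a P-glycoprotein drug and steroid pump, measured 10.7, 11.4, 7.17, 9.26 and 11.8 CPM in dwarf libraries and 339, 75.2, 138, 154 and 234 CPM in normal ones (-4.23 ± 0.679, edgeR adjusted p = 0.00173). The highest dwarf library was below the lowest normal library for both. Among matrix genes 5 of 47 rose and 4 fell, beside 1.96% and 1.86% of all tested genes, with a median of 0.02. The counts of the list were 1 and 1 without dwarf replicate 1, without normal replicate 1 or with dwarf replicates 1 and 4 summed. Rises and falls were 2 and 1 without dwarf replicate 4, 2 and 3 without dwarf replicate 5, and 3 and 2 without dwarf replicate 3. Without normal replicate 3, 4 or 5, 3 rose. Tnc, tenascin C of remodelling tissue, fell by 3.98 on the log2 scale (SE 0.769, edgeR adjusted p = 0.00745), from 250 ± 241 to 15.8 ± 4.95 CPM. Ogn, the small proteoglycan osteoglycin, rose by 1.42 ± 0.284 (edgeR adjusted p = 0.0087), with 36.9 to 83.7 CPM in dwarf and 7.73 to 29.3 CPM in normal libraries. Avpr1a, a vasopressin receptor, rose by 2.45 ± 0.448 (edgeR adjusted p = 0.00495), from 1.25 ± 0.794 to 6.94 ± 2.62 CPM.

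Senescence and cell cycle inhibitor genes gave 2 falls and 0 rises among 21, beside 1.86% and 1.96% of all tested genes. The median was -0.26. With dwarf replicates 1 and 4 summed, 0 fell and 0 rose. At 6 months 3 of the list were lower in dwarf ovaries and 0 higher, where 2.3% of all tested genes were lower. Summed over the list, normal libraries averaged 814 CPM at 6 months and 789.6 CPM at 22 months. Dwarf libraries averaged 702.5 and 667 CPM. Cdkn2a, the p16 and p19ARF locus that rises in ageing tissue, measured 2.63, 1.42, 3.2, 0.589 and 0.892 CPM in dwarf libraries and 6.34, 4.19, 9.35, 5.59 and 4.52 CPM in normal ones. The groups did not overlap (-1.76 ± 0.48, edgeR adjusted p = 0.0451), and the call was lost without dwarf replicate 1, 2, 4 or 5 or normal replicate 1, 2, 3 or 4, with an edgeR adjusted p of up to 0.135. Cdkn1b, p27, differed by -0.80 ± 0.203 (edgeR adjusted p = 0.0322) and lost its call without any 1 of the 5 dwarf libraries or without normal replicate 1, 4 or 5. Proliferation genes had 0 of 36 called by edgeR, DESeq2 or limma voom (1 at an unadjusted p under 0.05 in edgeR) and a median of -0.03.

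Several lists held 0 edgeR calls beside the 3.81% of all genes: cholesterol synthesis and supply (29 tested, median -0.24), oviduct secretory genes (17, median -0.49), motile cilium genes (18, median -0.03), endothelial genes (24, median -0.44), renin-angiotensin genes (10, median -0.29), respiratory chain subunits (89, median -0.20) and cytosolic ribosomal proteins (80, median -0.13). At an unadjusted p under 0.05 these lists held 7, 1, 0, 7, 1, 7 and 1 genes in the same order, DESeq2 called 4, 0, 0, 2, 1, 0 and 0, and limma voom 4, 1, 0, 6, 1, 17 and 1. Surface epithelium genes had 1 of 17 called (median 0.12), smooth muscle 1 of 17 (median -0.32) and adipocyte genes 1 of 18 (median -0.41), and these lists had 0 calls in 7, 6 and 5 of the 10 fits with 1 library left out. The 2 red blood cell genes tested were not called (median -0.30), and genes of kidney, pancreas and other neighbouring organs had 1 of 10 called (median -0.34). Genes of the oviduct secretory list were detected in both groups, summing to 2844 to 5184 CPM in dwarf and 2931 to 7163 CPM in normal libraries. The list shares keratin genes with the surface epithelium list, so the sum alone does not show that oviduct tissue was present. Motile cilium genes summed to 649.5 to 1476 CPM in dwarf and 410.8 to 1496 CPM in normal libraries. Whether oviduct tissue was present was not tested. Of 18 neuropeptide and receptor genes 2 rose and 1 fell, beside 1.96% and 1.86% of all tested genes. The median was -0.30, and 1 rose without dwarf replicate 3 or 4 or normal replicate 1.

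The 6-month comparison used 10 other libraries and shares with the 22-month one the estimate of spread. At 6 months 735 genes (4.57%) differed, 365 (2.27%) higher and 370 (2.3%) lower in dwarf ovaries. Of the 315 genes higher at 22 months, 148 were also called higher at 6 months (47% of the 22-month genes and 40.5% of the 6-month genes). Of the 299 lower, 106 were also called lower (35.5% and 28.6%), and 0 genes were called in opposite directions. The median difference of the genes called at 22 months was 1.46 and -1.25 at 22 months and 1.01 and -0.57 at 6 months, where the choice of genes at 22 months favours the larger value there. At 6 months normal replicate 2 stood apart: it was the lowest normal library over the oocyte list (30.8 CPM, group median 882) and the luteal list (485 CPM, group median 15950) and the highest over the oviduct list (9641 CPM, group median 234).

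**Figure D4:**
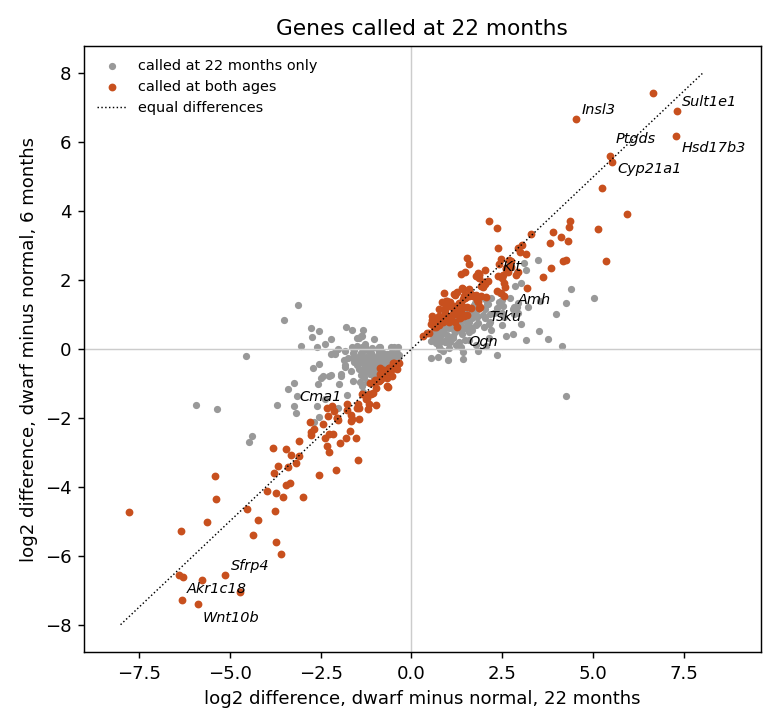
Log2 difference of dwarf minus normal ovaries at 22 months (horizontal) and 6 months (vertical) for the 614 genes called at 22 months, with genes called in both comparisons in orange and equal differences on the dotted line. Sult1e1, Hsd17b3, Cyp21a1 and Ptgds lie far up at both ages, Akr1c18, Wnt10b and Sfrp4 far down, and Ogn, Tsku and Cma1 are grey.

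Some of the steepest differences were present at both ages. Of 17 steroid-handling genes 2 were higher at each age, and of 19 luteal genes 7 were lower at 22 months and 8 at 6 months. The 6-month differences were 6.91 for Sult1e1, 6.18 for Hsd17b3, 5.43 for Cyp21a1, 5.61 for Ptgds and 4.69 for C7, beside 7.30, 7.28, 5.51, 5.47 and 5.25 at 22 months. On the low side they were -7.29 for Akr1c18, -7.40 for Wnt10b, -6.57 for Sfrp4 and -3.95 for Cyp11a1, beside -6.32, -5.88, -5.12 and -3.46. Each of these 9 genes passed edgeR's test at both ages. Other genes passed at 22 months and not at 6. Egr2 differed by 0.00 at 6 months (edgeR adjusted p = 0.998), Ctsd by -0.16 (0.765), Ogn by -0.08 (0.923), Cdkn1b by -0.14 (0.771), Amh by 1.15 (0.336), Cma1 by -1.65 (0.102) and Tsku, a secreted proteoglycan that measured 2.00 ± 0.221 at 22 months (edgeR adjusted p = 6.32e-05), by 0.65 (0.0992).

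**Figure D5:**
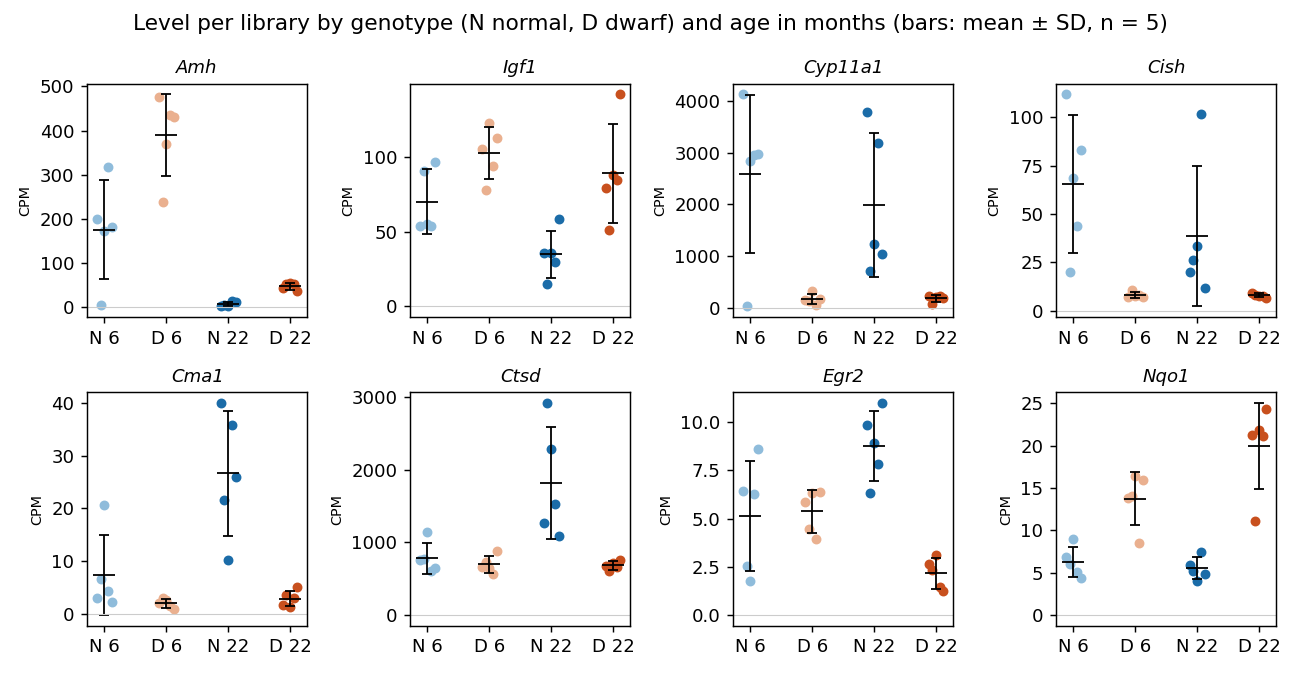
CPM of 8 genes in each library of the 4 groups (N normal, D dwarf, age in months), with the mean and SD of 5 libraries. Cyp11a1 and Cish are low in dwarf libraries at both ages, and the highest Ctsd and Cma1 values are in normal libraries at 22 months.

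The difference between ages was tested directly as an interaction, the genotype difference at 22 months minus that at 6 months. No gene passed (0 with edgeR at an adjusted p under 0.05, 1127 or 7% at an unadjusted p under 0.05), so passing at 1 age is not shown to differ from not passing at the other. DESeq2 called 17 genes and limma voom 9. The smallest edgeR adjusted p was 0.533, shared by Cyr61, Phyhip, Ace, Tsku and Tk2. Cyr61, a matricellular target of the Hippo pathway, differed by -0.42 at 22 months and 1.66 at 6 months, and Phyhip by -0.16 and -1.87. Without normal 22-month replicate 3 and normal 6-month replicates 2 and 3, of which the last had 1365640 counts, 202 genes passed the interaction and 1762 the 22-month comparison, 589 of them among the 614. Without normal 6-month replicate 2 alone, 1 gene passed the interaction.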

How the data were processed

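Ovarian RNA from 20 female mice was sequenced, 5 per genotype and age. Per the labels' protocols, Illumina libraries were made from 1 ug of Trizol-extracted RNA (polyA). What the authors deposited are raw read counts, 1 file per library. The submitters' processing notes name mm10 and these tools: HTSeq, TopHat2 2.0.10, TopHat, Bowtie2, edgeR, DESeq. Their roles, the annotation used for counting and its strand setting are not given here. The 5 summary rows (10.1 to 13.5% of each 22-month file) were left out, and 0 per-sample columns were unused. Gene coordinates came from the annotation in the series. The series text counts 20 mice, but no label ties a library to a mouse. The p-values therefore rest on the spread between libraries, estimated over all 20 and not only the 10 compared.

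The analysis used edgeR 4.0.16 in R 4.3.3: filterByExpr (minimum count 10, minimum total 15; 16099 genes kept), TMM scaling, and robust quasi-likelihood fits of the 4 group means over all 20 libraries (common dispersion 0.165). The threshold was a Benjamini-Hochberg adjusted p of 0.05. SEs are the absolute log2 difference over the square root of F. Alternatives were limma 3.58.1 (voom), DESeq2 1.42.0, other scalings and filters, a replicate block and left-out libraries. Leaving out dwarf replicate 2 with normal replicate 3 was added after seeing the data. On simulated counts for 15942 genes at these depths, the 22-month test recovered 44% of 2-fold and 85% of 4-fold changes with 7 false calls. The simulated libraries were drawn independently, without a near-identical pair or a library standing apart, and weakly expressed genes were left unchanged. The rates therefore describe those simulated counts, and recovery and false calls in the real libraries were not tested. Deviations of same-numbered dwarf and normal replicates correlated at 0.10, 0.08, -0.21, -0.06 and -0.14. These values show no pairing by number, but so few correlations cannot exclude one.

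The comparison, the 37 gene lists and the tests were chosen with earlier results of these data known. Genes were named by this rule: a panel of receptors, hormones and steroid enzymes; the 12 largest rises and falls that passed, reached a mean of 2 CPM and had no overlap; up to 4 passing members per list; the 5 smallest p in each direction and of the interaction; and markers of libraries that stand apart. Not all of these are printed, and the gene of the df allele is not reported here.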

Additional observations from a re-analysis of the deposited data

Results flagged for a closer look

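In each 22-month group of 5 the highest or lowest library was compared with the nearest other library, as a share of the group's range of log2 CPM, against Dixon's 95% critical value of 0.71. Of 194 groups, over the 97 genes examined in both genotypes, 24 held such a library, and 15 of the 24 were dwarf replicate 2. Chance would flag about 1 in 20 independent groups. Many of the genes were chosen from these data and several moved together in 1 library, so that rate is not a strict reference here.

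Dwarf replicate 2 was far below the other dwarf libraries for steroid and interstitial genes: Cyp11a1 at 62.2 CPM, Lhcgr at 2.84, Star at 91, Prlr at 61.1, Cyp17a1 at 26.6, Hsd17b3 at 5.49 and Cyp21a1 at 7.38 CPM. It was likewise low for C7 at 21.4 CPM, Cbln4 at 0.378, Fabp3 at 168, Serpina5 at 168, Svs5 at 5.96, Gsta3 at 43.1 and Nqo1 at 11.1 CPM. It was high for Plin4, at 97.7 CPM.

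Dwarf replicate 5 was high for Gli1 (130 CPM), Hexa (79.9 CPM) and Col15a1 (89.2 CPM) and low for Ghr (31.6 CPM) and Cd5 (0 CPM). Among normal libraries, replicate 1 was high for Dazl (0.0991 CPM, the other 4 at 0), replicate 2 was low for Dppa3 (0 CPM) and high for Ace (136 CPM), and replicate 3 was high for Msr1 (30.9 CPM). The flags of Dazl, Cd5 and Dppa3 rest on values near 0 CPM, where a few counts decide them.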

How the results depend on the processing

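The 614 calls at 22 months became 323 without the libraries with title numbers 21 to 23 and 272 with dwarf replicates 1 and 4 summed. They became 841 with the 10 libraries at 22 months alone, 2291 with limma voom and 1201 with DESeq2. The 3 libraries in doubt were normal 22-month replicate 3 and normal 6-month replicates 2 and 3. Without them 1762 genes passed at 22 months, and without normal 22-month replicate 3 alone 503 passed. Leaving out 1 library gave 262 to 637 calls at 22 months and 0 to 1 for the interaction. The interaction went from 0 calls to 202 without the 3 libraries in doubt, 9 with voom and 17 with DESeq2. The causes were not tested. Foxo3 and Socs2, neither called, changed sign without normal replicate 4, to -0.02 and 0.09, in ranges of -0.02 to 0.14 and -0.23 to 0.09 with 1 library left out. Of 2322 alternative values of named genes, 2095 kept direction and call, 199 lost the call, 26 gained it and 2 changed sign.

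No pairing of the samples by replicate number was seen. With a replicate block, 560 genes passed, 477 of them among the 614, and 0 passed the interaction. The shallowest 22-month libraries, dwarf replicate 5 and normal replicate 4, held 5399377 and 5186090 counts, which limits what can be seen of genes near 0 CPM such as Dazl.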
